A study of Mus musculus with 10 samples.

Results

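The open chromatin around Runx1, Runx2, Runx3 and Cbfb was examined in thymic invariant natural killer T (iNKT) cells, T lymphocytes with a semi-invariant receptor that recognizes lipids presented by CD1d. Regions were included if they overlapped the body of one of the 4 genes or lay within 50 kb of its transcription start. This rule, which uses no measured value, took 122 of the 94823 regions in the deposited table: 55 at Runx1, 24 at Runx2, 34 at Runx3 and 9 at Cbfb.

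Runx1, Runx2 and Runx3 are DNA-binding transcription factors that share the Runt domain and recognize the sequence TGTGGT. Cbfb encodes their common partner, which does not touch DNA itself and strengthens the binding of all of them. In T cells Runx1 acts in thymic progenitors and in the rearrangement and expression of T cell receptor genes, Runx3 is known for silencing Cd4 and for sustaining the cytotoxic and interferon-γ programmes together with T-bet, and Runx2 is best known from bone and from some memory T cells. Each Runx gene has a distal promoter (P1) and a proximal promoter (P2) that give proteins with different N termini, and both are treated separately here.

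ATAC-seq marks accessible DNA by the places where a transposase inserts sequencing adapters. It was done on sorted CD27+ CD122+ iNKT1 cells, which make interferon-γ, and CD27+ CD122- iNKT2 cells, which make interleukin-4. CD122, the product of Il2rb, was part of the gate. Both subsets were sorted from BALB/c animals and from SKG animals, a BALB/c line with a hypomorphic mutation of Zap70, the kinase that relays signals from the T cell receptor. Of the 10 libraries, 2 were from iNKT1 and 3 from iNKT2 cells in each genotype. The sources do not say whether libraries of a group came from separate animals or sorts, so the p-values measure the spread between these libraries, which may be technical. The libraries held 14988590 to 36342635 insertions in the listed regions. The point mutation of SKG mice leaves no mark in such a table, so the genotype labels could not be checked from the insertions.

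Levels are given as CPM, the insertions of a region per 1000000 insertions of the library after scaling by TMM (trimmed mean of M values), and log2 changes with their standard error (SE) and Benjamini-Hochberg adjusted p over all 94823 regions come from edgeR's quasi-likelihood test. A region was called when the adjusted p was under 0.01 and the change at least 4-fold, and regions that passed the p alone are given beside it. Positions such as Runx1 +64.1 kb are the distance of a region's centre from the upstream P1 start, positive in the direction of transcription, and coordinates are on mm10 (GRCm38), 1-based. In such bulk measurements, fewer cells with an open region and less opening per cell cannot be told apart.

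The labelled subsets could be checked at the promoters of marker genes. The promoters of the iNKT1 genes Tbx21, Ifng, Il2rb and Cxcr3 summed to 196 to 220 CPM in the 4 iNKT1 libraries and to 43.8 to 63.8 CPM in the 6 iNKT2 libraries. The 6 iNKT2 genes were open in every group and summed to 261 to 276 CPM in SKG iNKT2 and 221 to 235 CPM in SKG iNKT1 libraries. Their sum did not separate the BALB/c subsets, at 205 to 214 CPM in iNKT2 and 195 to 213 CPM in iNKT1. In BALB/c iNKT2 against iNKT1 libraries, Il17rb (15.1 to 18.2 against 6.83 to 9.26 CPM), Il6ra (26.6 to 32 against 13 to 14) and Il4 were higher. Gata3 (86.7 to 111 against 116 to 125) and Zbtb16 (21.6 to 31.4 against 32.9 to 34.3) were lower, and Ccr7 overlapped. The promoters of the iNKT17 genes were near 0 in iNKT1 and open at a low level in iNKT2 libraries. Il17a reached 0 to 0.26 CPM in iNKT1, 4.49 to 6.18 CPM in BALB/c iNKT2 and 0.62 to 1.75 CPM in SKG iNKT2 libraries. Il23r reached 0.06 to 0.32 CPM in iNKT1 and 2.76 to 5.57 CPM in iNKT2 libraries, and Ccr6 0 to 0.26 CPM and 0.66 to 3.03 CPM. None of the 4 genes of double-positive thymocytes (Rag1, Rag2, Dntt, Cd8b1) had a listed region at its start. Of the B cell genes, Cd79a had no such region and Pax5 reached 3.4 to 5.82 CPM in iNKT1 and 12.7 to 19.5 CPM in iNKT2 libraries. Of 3 myeloid genes, Csf1r and Lyz2 had none and Spi1 reached 15.1 to 17.2 CPM in iNKT1 and 6.02 to 7.4 CPM in iNKT2 libraries. The part of these other cell types in the subset differences below was not tested.

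The sequences of 6 regions that carry the results are shown first. They are the central 300 bases of each region on the plus strand of the GRCm38 reference, or the 250 bases before a RefSeq start (GRCm38.p6) on the gene's strand. The reference is C57BL/6J, and the mice studied may differ from it. Capitals mark matches, on either strand, to any of 7 short strings searched: RUNX TGTGGT, NFAT TGGAAA, EGR GTGGGCG, AP-1 TGANTCA, ETS CCGGAA, T-box TCACACCT and TCF CTTTGAA. Each string was counted on its own, and matches of different strings may overlap. The first sequence is the Runx3 intronic region most closed in iNKT2 cells by adjusted p, the second the upstream region with the largest Runx3 change, the third the one Runx1 region called lower in iNKT2 cells, the fourth the Runx1 region with the greatest gain in iNKT2 cells by adjusted p, the fifth a Runx1 region whose genotype change differed between the subsets, and the last the Runx3 P1 promoter.
Runx3 +48.7 kb, chr4:135169243-135169542: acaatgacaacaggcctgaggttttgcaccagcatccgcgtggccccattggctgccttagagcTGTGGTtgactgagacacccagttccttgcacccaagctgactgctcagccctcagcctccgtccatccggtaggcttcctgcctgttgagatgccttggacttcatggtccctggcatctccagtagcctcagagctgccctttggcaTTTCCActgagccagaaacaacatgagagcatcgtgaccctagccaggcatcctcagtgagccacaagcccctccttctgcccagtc
Runx3 -21.2 kb, chr4:135099256-135099555: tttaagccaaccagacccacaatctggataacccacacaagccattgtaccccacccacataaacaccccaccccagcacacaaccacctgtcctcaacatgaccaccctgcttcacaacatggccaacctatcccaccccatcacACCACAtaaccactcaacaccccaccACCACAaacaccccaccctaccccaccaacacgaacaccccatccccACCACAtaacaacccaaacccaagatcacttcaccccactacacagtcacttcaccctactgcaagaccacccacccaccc
Runx1 +172.1 kb, chr16:92653906-92654205: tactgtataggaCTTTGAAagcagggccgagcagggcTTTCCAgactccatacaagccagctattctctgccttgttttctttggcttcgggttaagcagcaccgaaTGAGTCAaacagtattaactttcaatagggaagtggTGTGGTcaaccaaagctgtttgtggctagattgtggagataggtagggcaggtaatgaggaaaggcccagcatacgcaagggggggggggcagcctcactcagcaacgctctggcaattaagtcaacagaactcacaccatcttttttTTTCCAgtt
Runx1 +64.1 kb, chr16:92761883-92762182: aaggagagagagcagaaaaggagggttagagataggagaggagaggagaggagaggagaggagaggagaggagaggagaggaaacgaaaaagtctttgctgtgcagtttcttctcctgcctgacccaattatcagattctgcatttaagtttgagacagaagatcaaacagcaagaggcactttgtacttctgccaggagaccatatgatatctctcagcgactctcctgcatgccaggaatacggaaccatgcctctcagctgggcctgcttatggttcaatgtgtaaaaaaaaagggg
Runx1 +7.3 kb, chr16:92818670-92818969: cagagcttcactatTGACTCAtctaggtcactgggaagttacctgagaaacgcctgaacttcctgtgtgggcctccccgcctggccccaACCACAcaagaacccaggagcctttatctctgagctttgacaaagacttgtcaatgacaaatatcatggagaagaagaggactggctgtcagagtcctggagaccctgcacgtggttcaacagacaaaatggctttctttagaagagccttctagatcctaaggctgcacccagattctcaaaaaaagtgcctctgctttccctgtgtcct
Runx3 P1 upstream, chr4:135120395-135120644: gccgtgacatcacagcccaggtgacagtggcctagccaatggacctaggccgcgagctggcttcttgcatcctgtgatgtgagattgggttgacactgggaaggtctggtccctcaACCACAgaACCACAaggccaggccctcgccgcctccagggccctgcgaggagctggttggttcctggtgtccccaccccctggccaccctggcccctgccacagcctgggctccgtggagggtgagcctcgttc

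The Runx3 +48.7 kb sequence held 1 RUNX and 1 NFAT match, the Runx3 -21.2 kb sequence 3 RUNX matches and the Runx3 P1 sequence 2 RUNX matches 2 bases apart. The Runx1 +172.1 kb sequence held RUNX, NFAT, AP-1 and TCF matches, Runx1 +7.3 kb a RUNX and an AP-1 match, and Runx1 +64.1 kb none of the 7 strings. Over the central 300 bases, 51 of the 122 regions (41.8%) held the RUNX string, against 30.3% of all 94823 regions, and 12 (9.84%) held the EGR string, against 4.72%. Among the 18 member regions called lower in BALB/c iNKT2 cells 13 (72.2%) held the RUNX string, and among the 11 called higher 2 (18.2%) did. Of those 18 regions 13 were at Runx3, where 16 of all 34 regions (47.1%) held the string. Its share among all regions called lower or higher was not counted, so these shares cannot be called particular to the 4 loci. The paper reports Runt motifs enriched in the regions of its iNKT1 signature. In 250 bases before a start, 14% of 32851 RefSeq promoters held the RUNX string. These matches describe letters, not bound sites.

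Which of the 4 loci differ between the subsets was asked first in BALB/c mice. The losses in iNKT2 cells were most frequent at Runx3. Of its 34 regions 13 (38.2%) were called lower and 0 higher, whereas 6.36% of all regions were called lower and 15.5% higher in this comparison. By adjusted p alone 25 Runx3 regions were lower and 2 higher, against 23.4% and 25.7% of all regions. The median log2 change over the 34 regions was -1.62, and over all regions it was 0.06. All Runx3 regions together summed to 418 ± 31.0 CPM (SD, n = 2) in BALB/c iNKT1 cells and 166 ± 20.4 CPM (n = 3) in BALB/c iNKT2 cells.

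In SKG mice the same comparison called 12 Runx3 regions lower and 0 higher, against 6.96% lower and 10.2% higher among all regions. These 12 were all among the 13 called in BALB/c mice, a share of 92.3% of the BALB/c calls and 100% of the SKG calls, and the comparisons share no library. The same share over all regions was not counted, so the overlap cannot be called particular to Runx3. The paper reports that regions favouring one subset in BALB/c mice tended to favour it in SKG mice too. By adjusted p alone 22 Runx3 regions were lower and 1 higher, against 17.6% and 18.4% of all regions. The median log2 change was -1.66 at Runx3 and 0.14 over all regions. The summed level was 420 ± 5.02 CPM (n = 2) in SKG iNKT1 and 190 ± 31.4 CPM (n = 3) in SKG iNKT2 cells.

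**Figure D1:**
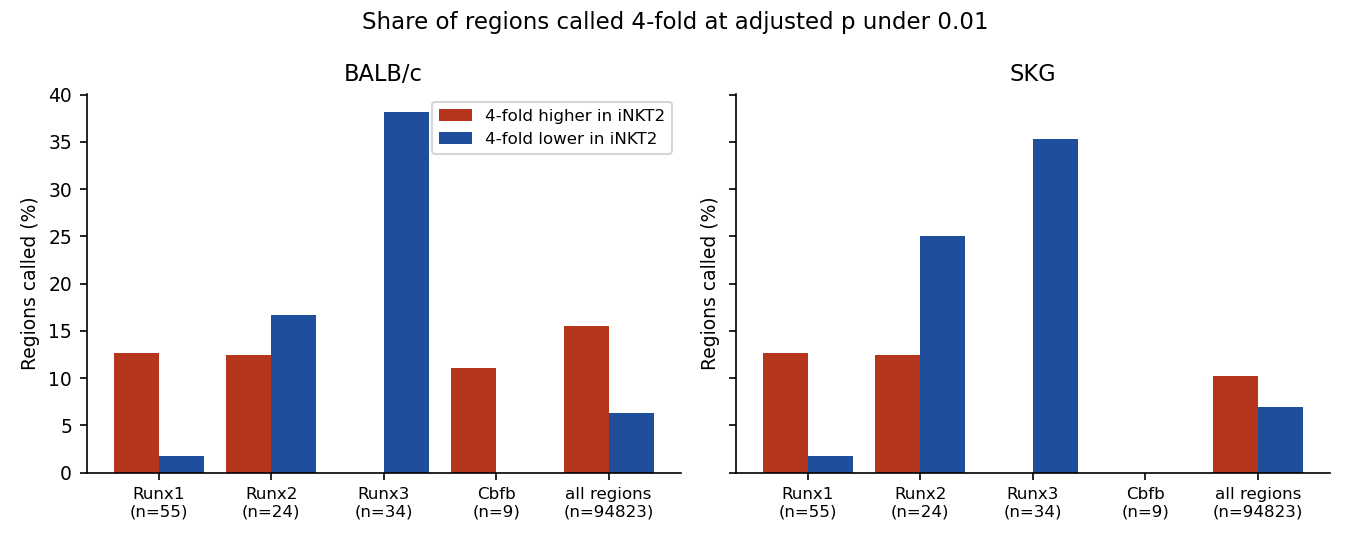
Share of regions (%, vertical axis from 0) called 4-fold higher (red) or lower (blue) in iNKT2 than in iNKT1 cells at each of the 4 loci and over all regions, with BALB/c mice on the left and SKG mice on the right. Runx3 has no red bar in either genotype and a blue bar of 38.2% in BALB/c mice, where all regions stand at 6.36%.

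The other Runx genes did not move one way. At Runx1 7 of 55 BALB/c regions were called higher and 1 lower, shares of 12.7% and 1.82%. Over all regions the BALB/c shares were 15.5% and 6.36%. At Runx2 3 of 24 were called higher and 4 lower, and at Cbfb 1 of 9 was called higher and 0 lower, with 6 of its 9 regions (66.7%) at an unadjusted p under 0.05, against 64.9% of all regions, and 0 called lower by DESeq2 or limma too. In SKG mice Runx1 had 7 higher and 1 lower, Runx2 3 higher and 6 lower, and Cbfb 0 in either direction in edgeR, with 7 of 9 regions (77.8%) at an unadjusted p under 0.05, against 55.6% of all regions. At Runx1 4 of the 7 regions called higher were shared between the genotypes (57.1% of each list), and at Runx2 3 of the 4 BALB/c and 6 SKG regions called lower. Over the 4 loci 11 regions (9.02%) were higher and 18 (14.8%) lower in BALB/c mice, so that 37.9% of the calls were gains. Over all regions gains were the larger part, with 14725 called higher and 6029 lower. The member share was 54.5% with library totals in place of TMM factors and 16.7% with quantile normalization. Library totals moved the median log2 change of all regions from 0.06 to 0.34. All-region calls were then 17104 higher and 4750 lower, and with quantile normalization 9042 and 8966. At Runx3 no region was called higher under any of these scalings.

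At the promoters the subset differences were smaller than at many distal regions. Runx3 P1, the start of the longer Runx3 protein, was covered by a region over the start (Runx3 -0.2 kb, chr4:135120277-135120722, over an untranslated exon and also within the gene Gm16225). It measured 76.5 and 74.8 CPM in the BALB/c iNKT1 libraries, 83.1 and 85.3 CPM in SKG iNKT1, 42.5, 36.8 and 41.6 CPM in BALB/c iNKT2 and 45.2, 46.7 and 48.1 CPM in SKG iNKT2. Every iNKT2 library lay below every iNKT1 library. The share of all regions whose groups do not overlap was not counted, here or for the regions below. Such an order therefore cannot be called particular to these loci. The log2 change from iNKT1 to iNKT2 was -0.91 (SE 0.12, adjusted p = 9.0e-06) in BALB/c and -0.85 (SE 0.12, adjusted p = 2.5e-05) in SKG cells. Just upstream, Runx3 -0.5 kb (chr4:135119950-135120263) fell further, from 17.2 and 13.9 CPM in BALB/c iNKT1 to 4.61, 3.1 and 3.79 CPM in BALB/c iNKT2, with a log2 change of -2.02 (SE 0.22, adjusted p = 1.5e-06). It was the single promoter region of the 13 that was called at 4-fold. In SKG cells it went from 15.2 and 17.7 CPM to 6.36, 4.64 and 4.04 CPM, a log2 change of -1.69 (SE 0.22, adjusted p = 1.4e-05), under the 4-fold limit.

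The proximal Runx3 promoter P2 (Runx3 +31.9 kb, chr4:135152042-135153147, over a coding exon) held 33.2 and 27.7 CPM in BALB/c iNKT1 and 17.3, 13.8 and 16.2 CPM in BALB/c iNKT2 libraries, a log2 change of -0.95 (SE 0.17, adjusted p = 2.0e-04). In SKG cells the change was -0.46 (SE 0.17), with 32.8 and 30.5 CPM in iNKT1 and 28.4, 19.7 and 20.2 CPM in iNKT2 libraries, and the adjusted p of 0.037 missed the threshold. Its neighbour Runx3 +33.4 kb changed by -0.61 (SE 0.24, adjusted p = 0.035) in BALB/c cells and -0.10 (SE 0.24, adjusted p = 0.76) in SKG cells. Per kb of region, P1 was the more open start: 170 CPM per kb at Runx3 -0.2 kb and 27.5 CPM per kb at Runx3 +31.9 kb in BALB/c iNKT1 cells.

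Runx1 P1 was covered by one broad region over a coding exon (Runx1 +0.5 kb, chr16:92824739-92826636). It measured 135 and 133 CPM in BALB/c iNKT1, 123 and 127 CPM in SKG iNKT1, 68.3, 62.3 and 66.6 CPM in BALB/c iNKT2 and 102, 91.2 and 103 CPM in SKG iNKT2 libraries. The 4 groups did not overlap, with SKG iNKT2 between the iNKT1 groups and BALB/c iNKT2. The log2 change from iNKT1 to iNKT2 was -1.03 (SE 0.12, adjusted p = 2.2e-06) in BALB/c cells and -0.34 (SE 0.12, adjusted p = 0.026) in SKG cells. Runx1 P2 was weaker, with 3 regions of 7.26 to 12.6 CPM in group mean, and its region over the start (Runx1 +128.8 kb, chr16:92697121-92697601) held 23.5 CPM per kb in BALB/c iNKT1 cells, where Runx1 P1 held 70.6. Its log2 change in BALB/c cells was -0.61 (SE 0.18, adjusted p = 0.0077), from 11.6 and 11.1 CPM to 6.84, 7.54 and 7.92 CPM. In SKG cells none of the 3 P2 regions passed the test, with log2 changes of -0.30 to 0.20. The flanking P1 region Runx1 -0.7 kb changed by -1.07 (SE 0.26, adjusted p = 0.0023) in BALB/c and -0.07 (SE 0.28, adjusted p = 0.85) in SKG cells.

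No listed region lay within 1 kb of the distal P1 start of Runx2, and the nearest was Runx2 -2.3 kb. Runx2 P2, the start of the shorter protein, had 3 listed regions. The one over the start was Runx2 +78.8 kb (chr17:44735086-44736867, over a coding exon, also within the gene Runx2os1). It measured 50.7 and 43.2 CPM in BALB/c iNKT1 and 22.2, 23.1 and 26.8 CPM in BALB/c iNKT2 libraries, with a log2 change of -0.97 (SE 0.13, adjusted p = 1.7e-05). The SKG libraries held 44.2 and 45.9 CPM in iNKT1 and 26.7, 29.8 and 31.1 CPM in iNKT2, a change of -0.63 (SE 0.14, adjusted p = 0.0013). The Cbfb promoter (Cbfb +0.3 kb, chr8:105170051-105171912, over a coding exon, also within the gene Gm3830) held 89.1 and 84.2 CPM in BALB/c iNKT1, 89.2 and 88.1 CPM in SKG iNKT1, 65.0, 63.3 and 65.8 CPM in BALB/c iNKT2 and 70.3, 68.3 and 71.9 CPM in SKG iNKT2 libraries. The iNKT2 libraries lay below the iNKT1 libraries, but the log2 change was small, -0.42 (SE 0.11, adjusted p = 0.0042) in BALB/c and -0.34 (SE 0.11, adjusted p = 0.022) in SKG cells. The BALB/c value became 0.00 when the trend with GC content was removed, so its direction rests on that choice. Of all single-region values under that setting, 4 lost their side of the threshold and 1 reversed.

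**Figure D2:**
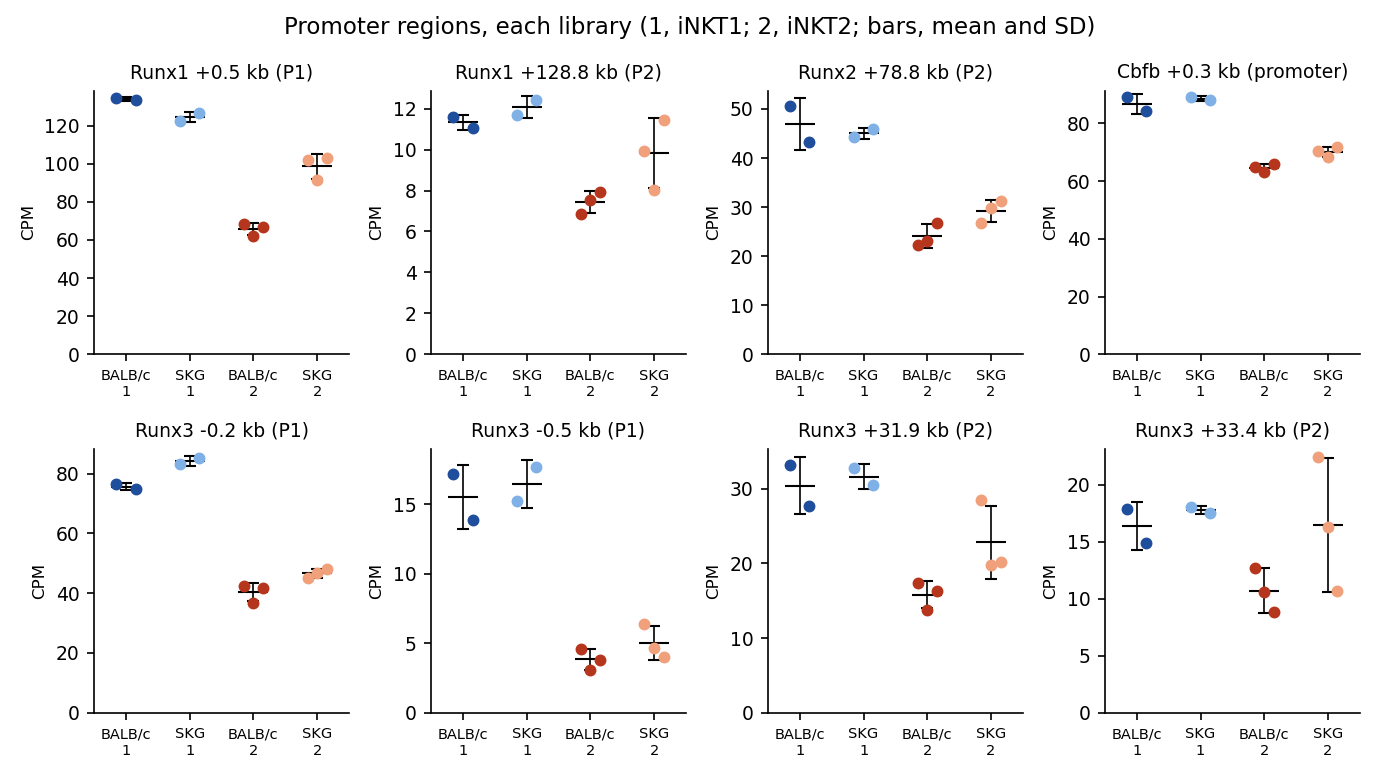
CPM (vertical axes from 0) of 8 promoter regions in each of the 10 libraries, with points for libraries and bars for the mean and SD of a group. Runx3 -0.2 kb, Runx2 +78.8 kb and Cbfb +0.3 kb show every iNKT2 library below every iNKT1 library, and Runx1 +0.5 kb shows SKG iNKT2 at 98.7 CPM between BALB/c iNKT2 at 65.7 and the iNKT1 groups. The share of all regions with such an order was not counted.

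Among distal regions of Runx3, the decrease extended over the upstream flank and the gene body. The intronic region Runx3 +48.7 kb (chr4:135169091-135169695) measured 23.3 and 21.8 CPM in BALB/c iNKT1, 21.5 and 21.2 CPM in SKG iNKT1, 3.29, 1.77 and 1.81 CPM in BALB/c iNKT2 and 1.93, 1.79 and 1.01 CPM in SKG iNKT2. Its log2 change was -3.29 (SE 0.25, adjusted p = 5.9e-08) in BALB/c and -3.70 (SE 0.27, adjusted p = 5.3e-08) in SKG cells. The pair Runx3 -17.7 kb and Runx3 -16.5 kb, upstream of the gene, fell by 2.21 and 2.61 on the log2 scale in BALB/c cells (SE 0.21 and 0.24, adjusted p = 5.1e-07 and 2.9e-07). Runx3 -17.7 kb (chr4:135102792-135103120) went from 15.4 and 13.4 CPM to 3.39, 2.88 and 3.05 CPM. Runx3 -16.5 kb (chr4:135103838-135104466) went from 17.6 and 14.6 CPM to 3.36, 2.46 and 2.06 CPM. In SKG cells their changes were -2.38 (SE 0.22, adjusted p = 5.4e-07) and -2.69 (SE 0.24, adjusted p = 4.0e-07).

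Runx3 -21.2 kb (chr4:135099217-135099595) was nearly closed in iNKT2 cells. It held 3.67 and 4.32 CPM in BALB/c iNKT1 and 0.063, 0.053 and 0.165 CPM in BALB/c iNKT2 libraries, the iNKT2 group holding 8 insertions in all. Its log2 change was -5.45 (SE 0.49, adjusted p = 2.5e-07), and in SKG cells, from 3.34 and 3.02 CPM to 0.238, 0.184 and 0 CPM, it was -4.22 (SE 0.49, adjusted p = 3.9e-06). Of the 34 Runx3 regions 2 passed the test in the other direction in BALB/c mice. Runx3 +8.3 kb, an intronic region, was higher in iNKT2 cells of BALB/c mice (log2 change 0.92, SE 0.23, adjusted p = 0.0026) and of SKG mice (0.89, SE 0.23, adjusted p = 0.0052), and Runx3 +35.1 kb, over a coding exon, was higher in BALB/c mice (0.91, SE 0.25, adjusted p = 0.0048), with 0.50 (SE 0.25, adjusted p = 0.11) in SKG mice. These 2 were chosen after their values were seen.

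Runx1 held the distal regions with the clearest gain in iNKT2 cells, in the long first intron between P1 and P2. Runx1 +64.1 kb (chr16:92761830-92762235) measured 1.14 and 1.15 CPM in BALB/c iNKT1, 1.09 and 1.67 CPM in SKG iNKT1, 15.5, 19.3 and 16.2 CPM in BALB/c iNKT2 and 21.5, 27.7 and 30.1 CPM in SKG iNKT2. The log2 change was 3.89 (SE 0.24, adjusted p = 1.2e-08) in BALB/c and 4.25 (SE 0.26, adjusted p = 1.4e-08) in SKG cells. Its neighbour Runx1 +63.7 kb (chr16:92762334-92762648) went with it, from 0.209 and 0.264 CPM to 2.42, 3.62 and 3.09 CPM in BALB/c mice (log2 change 3.69, SE 0.36, adjusted p = 6.1e-07) and from 0.257 and 0.449 CPM to 4.34, 5.05 and 4.72 CPM in SKG mice (3.71, SE 0.37, adjusted p = 1.0e-06). Runx1 +61.2 kb was called in SKG cells (log2 change 2.04, SE 0.26, adjusted p = 9.0e-06), where it was 1.99 in DESeq2 and 1.89 without SKG iNKT1 replicate 1, under 4-fold. In BALB/c cells its change was 1.14 (SE 0.23, adjusted p = 4.7e-04). Runx1 +68.4 kb rose in both genotypes at a low level, from 0.252 ± 0.018 to 1.85 ± 0.25 CPM in BALB/c mice (log2 change 2.86, SE 0.43, adjusted p = 3.4e-05) and from 0.257 ± 0.182 to 1.63 ± 0.17 CPM in SKG mice (2.63, SE 0.49, adjusted p = 3.5e-04).

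One Runx1 region went the other way by 4-fold. Runx1 +172.1 kb (chr16:92653892-92654220), intronic and downstream of P2, measured 9.38 and 7.49 CPM in BALB/c iNKT1 and 1.32, 0.82 and 1.24 CPM in BALB/c iNKT2, a log2 change of -2.92 (SE 0.27, adjusted p = 3.4e-07). In SKG cells it went from 8.48 and 13.7 CPM to 2.65, 2.07 and 1.89 CPM, a change of -2.30 (SE 0.26, adjusted p = 3.6e-06). Without SKG iNKT1 replicate 2, the higher of its pair, this was -1.92 and no longer 4-fold. By adjusted p alone 16 Runx1 regions (29.1%) were lower and 12 (21.8%) higher in BALB/c cells, where 23.4% and 25.7% of all regions were. In SKG cells 3 (5.45%) were lower and 16 (29.1%) higher, where 17.6% and 18.4% of all regions were. The median log2 changes were -0.19 and 0.79 at Runx1, and 0.06 and 0.14 over all regions.

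Runx2 regions lost in iNKT2 cells lay mostly downstream of P2. Runx2 +257.4 kb (chr17:44557107-44557613), the most open of those called, measured 29.7 and 26.8 CPM in BALB/c iNKT1, 27.2 and 26.9 CPM in SKG iNKT1, 2.54, 2.01 and 1.44 CPM in BALB/c iNKT2 and 3.36, 1.38 and 2.7 CPM in SKG iNKT2. Its log2 change was -3.80 (SE 0.27, adjusted p = 2.8e-08) in BALB/c and -3.42 (SE 0.27, adjusted p = 1.0e-07) in SKG cells. Runx2 +205.7 kb (chr17:44608920-44609311) went from 6.0 and 6.26 CPM to 0.596, 0.476 and 0.33 CPM in BALB/c cells (log2 change -3.68, SE 0.37, adjusted p = 6.9e-07) and changed by -2.45 (SE 0.39, adjusted p = 9.3e-05) in SKG cells. Runx2 +247.7 kb fell by 2.35 on the log2 scale in SKG cells (SE 0.29, adjusted p = 9.2e-06) and by 1.76 in BALB/c cells (SE 0.27, adjusted p = 4.6e-05), in the second case under 4-fold. Runx2 -4.2 kb, upstream of the gene and inside Supt3, the neighbouring gene, changed by -2.06 (SE 0.29, adjusted p = 2.1e-05) in BALB/c and -2.88 (SE 0.31, adjusted p = 2.1e-06) in SKG cells. Its BALB/c change was near the limit of 4-fold and was -1.77 with library totals, -1.91 without sparse regions, and -1.89, -1.80 and -1.91 without BALB/c iNKT1 replicate 1, BALB/c iNKT2 replicate 2 and BALB/c iNKT2 replicate 3.

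The Runx2 regions that opened in iNKT2 cells started from almost nothing. Runx2 +210.2 kb, over an untranslated exon, held 2 insertions in all of BALB/c iNKT1 and 0 in SKG iNKT1, and measured 0.91, 1.82 and 1.81 CPM in BALB/c iNKT2 and 1.04, 1.29 and 1.15 CPM in SKG iNKT2 libraries. Against a floor of 3 insertions over the SKG iNKT1 group it was at least 12.0-fold higher in SKG iNKT2 cells (adjusted p = 9.2e-05), and the BALB/c test gave an adjusted p of 1.6e-05. Runx2 +98.3 kb held 2 and 1 insertions in BALB/c and SKG iNKT1, and 1.75 ± 0.19 CPM in BALB/c iNKT2 and 1.04 ± 0.12 CPM in SKG iNKT2 cells (adjusted p = 5.6e-06 and 2.2e-04). Runx2 +129.1 kb went from 0.394 ± 0.245 to 2.51 ± 0.08 CPM in BALB/c cells (log2 change 2.59, SE 0.44, adjusted p = 1.2e-04) and changed by 1.38 (SE 0.54, adjusted p = 0.043) in SKG cells. A floor of this kind covers counting error only.

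At Cbfb the single call was Cbfb -28.1 kb (chr8:105142427-105142734), upstream and within the carboxylesterase gene Ces4a. It measured 0.03 and 0.397 CPM in BALB/c iNKT1 and 1.32, 1.32 and 1.36 CPM in BALB/c iNKT2 libraries (log2 change 2.78, SE 0.67, adjusted p = 0.0021). Without BALB/c iNKT1 replicate 1 the change was 1.77 with an adjusted p of 0.041. Of the 9 Cbfb regions, the promoter at 64.7 to 88.6 CPM in group mean took most of the summed level, which was 97.3 ± 2.79 CPM in BALB/c iNKT1 and 82.9 ± 0.94 CPM in BALB/c iNKT2 cells.

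**Figure D3:**
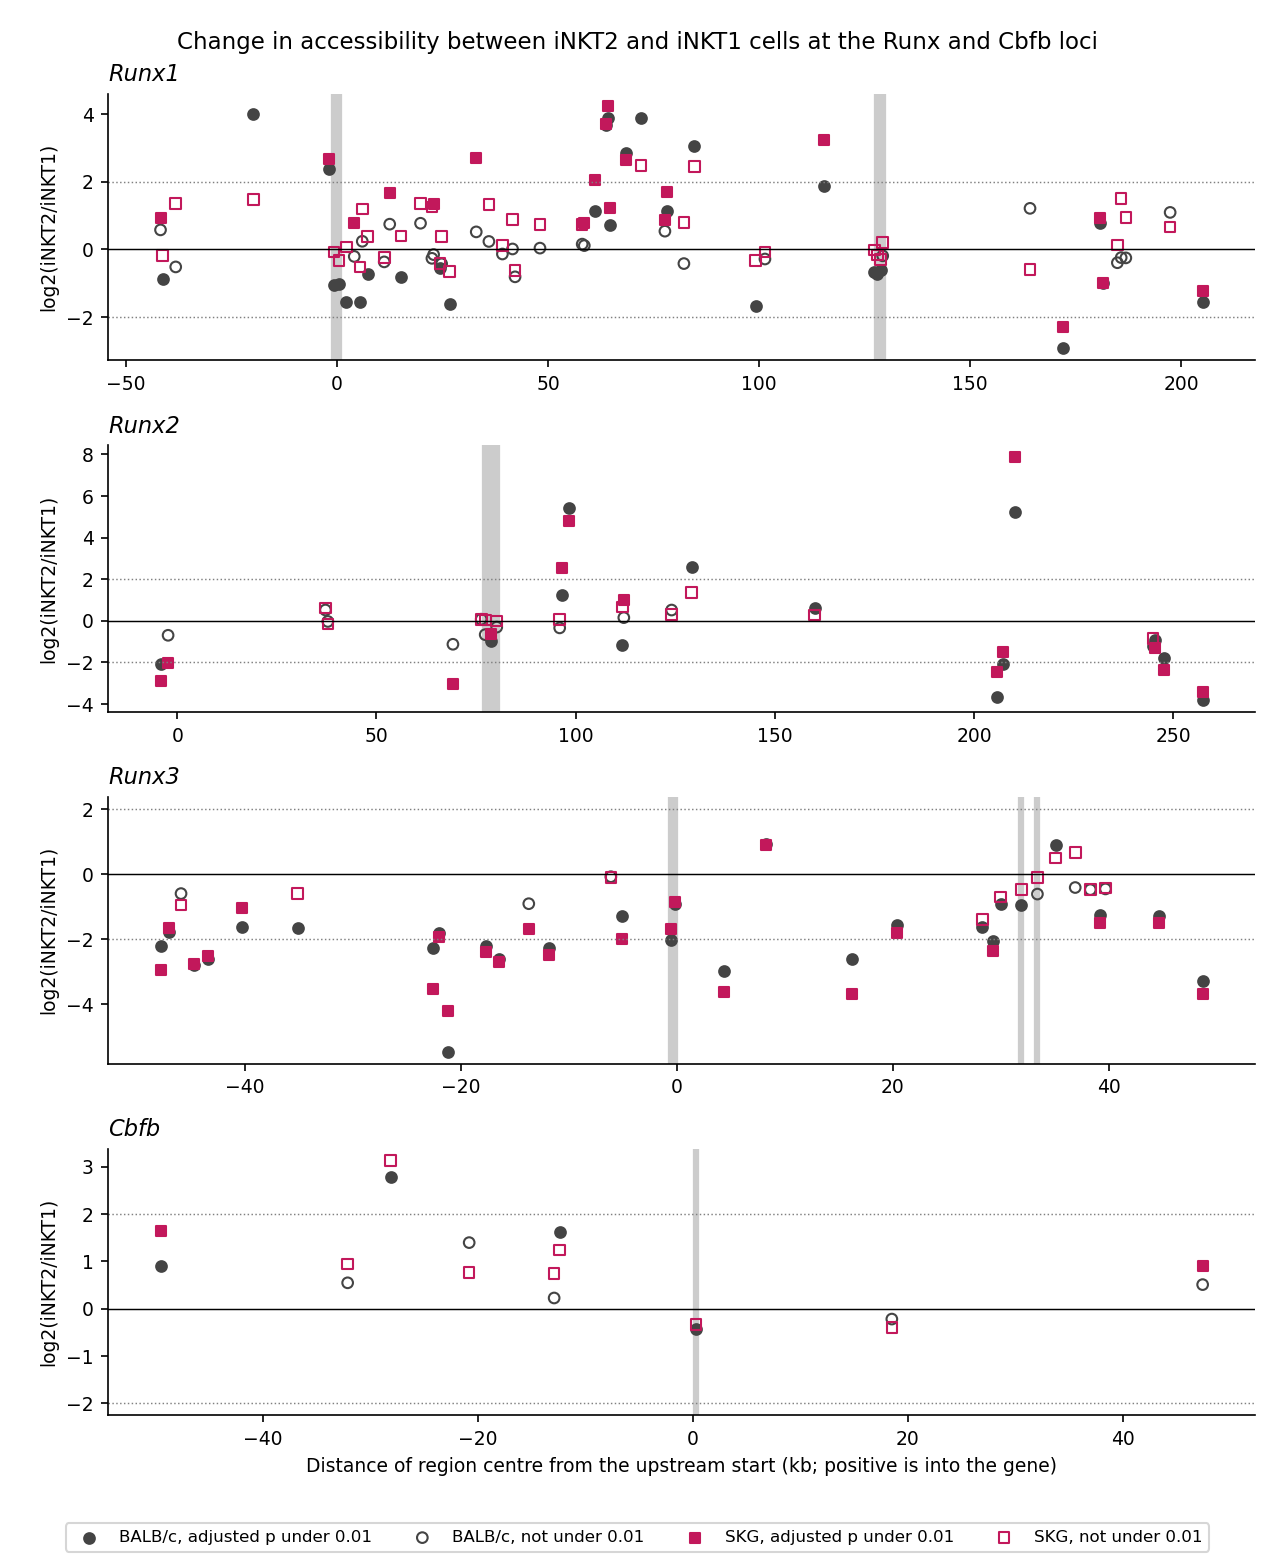
Log2 change from iNKT1 to iNKT2 cells (vertical axis) of each region at the 4 loci by its distance from the upstream start (kb, horizontal axis), in BALB/c (grey circles) and SKG mice (red squares). Filled symbols passed an adjusted p under 0.01, dotted lines mark 4-fold, grey bands mark promoter regions, and most Runx3 symbols lie below 0, with Runx1 +64.1 kb at 3.89 and 4.25. The heights of Runx2 +98.3 kb and Runx2 +210.2 kb rest on 0 to 2 insertions in an iNKT1 group and are not measures of fold.

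Whether weaker Zap70 signalling changed these loci within iNKT1 cells was the next comparison. Few regions differed. In SKG iNKT1 against BALB/c iNKT1 cells 1 of the 122 regions was called higher and 1 lower, against 0.281% and 0.732% of all regions, and by adjusted p alone 1 was higher and 2 lower, against 0.662% and 1.42%. Runx1 +164.2 kb (chr16:92661742-92662077, intronic) was the gain, from 0.538 and 0.529 CPM to 2.76 and 3.72 CPM, with a log2 change of 2.59 (SE 0.42, adjusted p = 0.0019). Runx2 +96.5 kb (chr17:44718094-44718423, intronic) was the loss, from 2.72 and 3.66 CPM to 0.835 and 0.321 CPM, with a change of -2.44 (SE 0.42, adjusted p = 0.0027). Both calls were lost, with the direction kept, when any one of the 4 iNKT1 libraries was left out, which leaves 1 library in a group (log2 change 2.36 to 2.79 and -3.28 to -1.92). Both were also lost with quantile normalization (2.20, adjusted p = 0.014, and -1.93, adjusted p = 0.067), and the Runx2 call with voom and TMM factors in limma (adjusted p = 0.034). At Runx3 and Cbfb edgeR called 0 regions in either direction, with 7 of 34 (20.6%) and 2 of 9 (22.2%) at an unadjusted p under 0.05, against 17.1% of all regions. At Runx3 limma called 0 and DESeq2 called 1 lower.

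In iNKT2 cells the genotype difference centred on Runx1. Over the 4 loci the calls in SKG iNKT2 against BALB/c iNKT2 cells were 2 gains and 2 losses, against 0.252% and 4.73% of all regions. By adjusted p alone 9 Runx1 regions of 55 (16.4%) were higher and 1 lower, against 4.02% and 10.1% of all regions, while Runx2, Runx3 and Cbfb had 0 higher and 1, 2 and 1 lower. With the replicate number as a block, which pairs the iNKT2 libraries, 11 Runx1 and 3 Runx3 regions were higher. The block also moved the higher count over all 94823 regions, from 3812 to 5588. The Runx1 regions summed to 467 ± 29.2 CPM (n = 3) in BALB/c iNKT2 and 653 ± 38.7 CPM (n = 3) in SKG iNKT2 cells, and to 661 ± 13.1 CPM and 586 ± 67.7 CPM (n = 2 each) in BALB/c and SKG iNKT1 cells. The median log2 change of the 55 Runx1 regions in iNKT2 cells was 0.45, and 0.01 over all regions.

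Of those 9 Runx1 regions 5 lay in the stretch from P1 to 16 kb into the gene, which holds 9 regions and was chosen after its values were seen. Runx1 P1 itself (Runx1 +0.5 kb) was higher in SKG iNKT2 cells by 0.59 (log2, SE 0.11, adjusted p = 8.3e-04), and without BALB/c iNKT2 replicate 2 the change was 0.50 and missed the threshold. Runx1 +7.3 kb (chr16:92818399-92819241) measured 50.9, 50.3 and 49.1 CPM in BALB/c iNKT2 and 80.7, 78.0 and 99.5 CPM in SKG iNKT2 libraries, a log2 change of 0.78 (SE 0.12, adjusted p = 3.0e-04). In the iNKT1 libraries it measured 77.4 and 87.8 CPM in BALB/c and 60.9 and 71.6 CPM in SKG mice, a change of -0.32 (SE 0.15, adjusted p = 0.30). SKG iNKT2 cells thus stood at the level of BALB/c iNKT1 cells, and BALB/c iNKT2 cells below all others. Runx1 +4.1 kb and Runx1 +15.2 kb were also chosen after their values were seen. Runx1 +4.1 kb rose by 0.88 (SE 0.13, adjusted p = 1.8e-04), from 33, 41.1 and 36.3 to 62.4, 68.2 and 72.8 CPM. Runx1 +15.2 kb rose by 1.18 (SE 0.20, adjusted p = 5.9e-04), from 10.6, 10.0 and 7.34 to 27.5, 16.5 and 19.3 CPM.

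Runx1 +2.2 kb (chr16:92823251-92824632, intronic) differed by subset in a similar way. It measured 23.3 and 26.6 CPM in BALB/c iNKT1, 14.5 and 14.2 CPM in SKG iNKT1, 10.1, 7.49 and 7.63 CPM in BALB/c iNKT2 and 19.9, 11.8 and 13.1 CPM in SKG iNKT2. From BALB/c to SKG it changed by 0.83 (SE 0.19, adjusted p = 0.0051) in iNKT2 and -0.80 (SE 0.23, adjusted p = 0.065) in iNKT1 cells. The test of the difference between the genotype changes in the subsets passed an adjusted p of 0.01 at this region (1.63, SE 0.30, adjusted p = 0.0087) and at Runx1 +7.3 kb (1.10, SE 0.19, adjusted p = 0.0067). With library totals in place of TMM factors neither passed (adjusted p = 0.033 and 0.011), nor with quantile normalization (0.013 and 0.018), and without sparse regions Runx1 +2.2 kb did not (0.016). With the replicate block 4 regions passed, these and, chosen after their values were seen, Runx1 +4.1 kb (1.01, SE 0.17, adjusted p = 0.0019) and Runx2 +111.7 kb (1.85, SE 0.38, adjusted p = 0.0080). Over all regions the block moved the counts from 423 higher and 454 lower to 859 and 861. No region reached 4-fold in the test without the block, where 32 of the 122 (26.2%) had an unadjusted p under 0.05, against 19.8% of all regions, and DESeq2 and limma also called 0 at 4-fold. Over all regions 0.446% were higher and 0.479% lower in it by adjusted p, and 0.189% and 0.341% at 4-fold. The difference was positive at 48 of 55 Runx1 regions with a median of 0.62, at 15 of 34 Runx3 regions with a median of -0.06, and at 51249 of 94823 regions in all with a median of 0.06.

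The 2 regions called higher in SKG iNKT2 cells lay together near the Runx1 3′ end, both intronic and weak. Runx1 +186.9 kb (chr16:92639094-92639419) went from 0.941, 0.608 and 0.453 CPM to 2.2, 3.31 and 2.9 CPM (log2 change 2.03, SE 0.31, adjusted p = 2.4e-04). With library totals it was 1.89 and under 4-fold, without BALB/c iNKT2 replicate 3 it was 1.79, and it was 1.99, 1.89 and 1.89 without BALB/c iNKT1 replicate 1, BALB/c iNKT2 replicate 2 and SKG iNKT2 replicate 2. Runx1 +185.8 kb (chr16:92640188-92640487) went from 0.188, 0.291 and 0.206 CPM to 1.6, 1.51 and 1.89 CPM (2.81, SE 0.44, adjusted p = 2.8e-04). The strong neighbour Runx1 +184.9 kb, chosen after its values were seen, was higher as well, at 26.8 ± 5.88 CPM in BALB/c and 44.7 ± 1.21 CPM in SKG iNKT2 cells (0.74, SE 0.16, adjusted p = 0.0027).

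Some regions were lower in SKG cells of both subsets. Runx3 -6.1 kb (chr4:135114410-135114775, upstream of P1) measured 4.03 and 4.01 CPM in BALB/c iNKT1, 1.28 and 0.449 CPM in SKG iNKT1, 4.64, 3.04 and 3.75 CPM in BALB/c iNKT2 and 1.07, 0.321 and 1.01 CPM in SKG iNKT2. Every SKG library lay below every BALB/c library. The log2 change was -2.23 (SE 0.37, adjusted p = 4.0e-04) in iNKT2 cells and -2.21 (SE 0.47, adjusted p = 0.011) in iNKT1 cells, the second just outside the threshold, and the difference between them was -0.02 (SE 0.60). Without SKG iNKT2 replicate 2 the first was -1.86. Between the subsets it changed by -0.08 (SE 0.34) in BALB/c and -0.10 (SE 0.50) in SKG mice, and its central 300 bases held 1 match, to the NFAT string.

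Runx1 +77.7 kb (chr16:92748201-92748735, intronic), chosen after its values were seen, passed in both subsets. It measured 8.03 and 6.79 CPM in BALB/c iNKT1, 2.44 and 2.89 CPM in SKG iNKT1, 11.4, 10.4 and 10.6 CPM in BALB/c iNKT2 and 6.0, 3.77 and 4.58 CPM in SKG iNKT2. Its log2 change was -1.48 (SE 0.26, adjusted p = 0.0029) in iNKT1 and -1.16 (SE 0.19, adjusted p = 3.9e-04) in iNKT2 cells. Runx2 +96.5 kb, named above for iNKT1 cells, went from 6.52, 8.2 and 8.08 CPM to 3.24, 2.57 and 4.65 CPM in iNKT2 cells (-1.15, SE 0.25, adjusted p = 0.0033). It was more open in iNKT2 than in iNKT1 cells, by 1.26 (SE 0.28, adjusted p = 0.0011) in BALB/c and 2.56 (SE 0.40, adjusted p = 7.6e-05) in SKG mice. Cbfb -20.8 kb (chr8:105149714-105150013, within Ces4a) went from 2.51, 0.846 and 1.28 CPM to 0.149, 0.046 and 0.135 CPM in iNKT2 cells (-3.72, SE 0.63, adjusted p = 5.1e-04). This call was lost with quantile normalization (-3.24, adjusted p = 0.015). In iNKT1 cells it went from 0.627 and 0.529 CPM to 0 and 0.128 CPM (adjusted p = 0.11). In iNKT2 cells Runx3 +16.2 kb, chosen after its values were seen, was lower too, by 1.88 on the log2 scale (SE 0.40, adjusted p = 0.0028), from 1.39 ± 0.58 to 0.345 ± 0.166 CPM.

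The promoters of the other members differed less between genotypes. In iNKT2 cells the log2 change from BALB/c to SKG was 0.21 (SE 0.11, adjusted p = 0.17) at Runx3 -0.2 kb, 0.28 (SE 0.12, adjusted p = 0.11) at Runx2 +78.8 kb and 0.12 (SE 0.10, adjusted p = 0.43) at the Cbfb promoter. Runx3 P2 was 0.54 higher at Runx3 +31.9 kb (SE 0.16, adjusted p = 0.020) and 0.63 higher at Runx3 +33.4 kb (SE 0.22, adjusted p = 0.043), and with the replicate block both passed the threshold, at 0.53 and 0.59. In iNKT1 cells the same regions changed by 0.05 (SE 0.19) and 0.12 (SE 0.27).

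**Figure D4:**
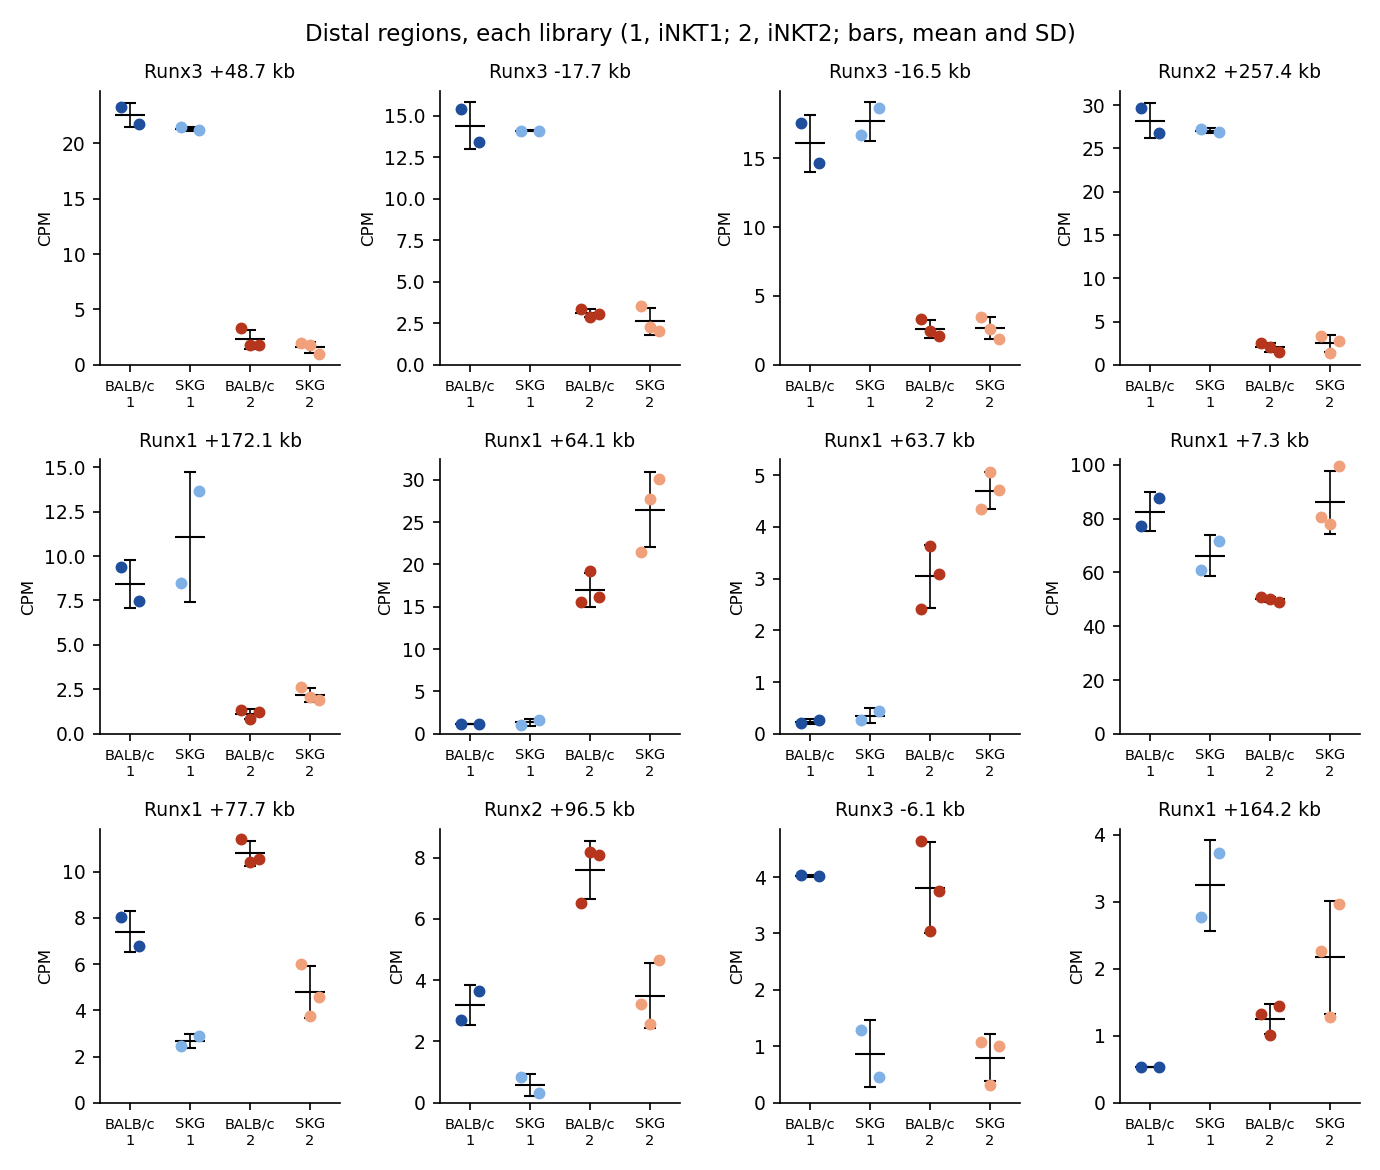
CPM (vertical axes from 0) of 12 distal regions in each of the 10 libraries, with points for libraries and bars for the mean and SD of a group. Runx3 +48.7 kb and Runx2 +257.4 kb are high in all iNKT1 libraries, Runx1 +64.1 kb in all iNKT2 libraries, and Runx3 -6.1 kb in all BALB/c libraries.

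**Figure D5:**
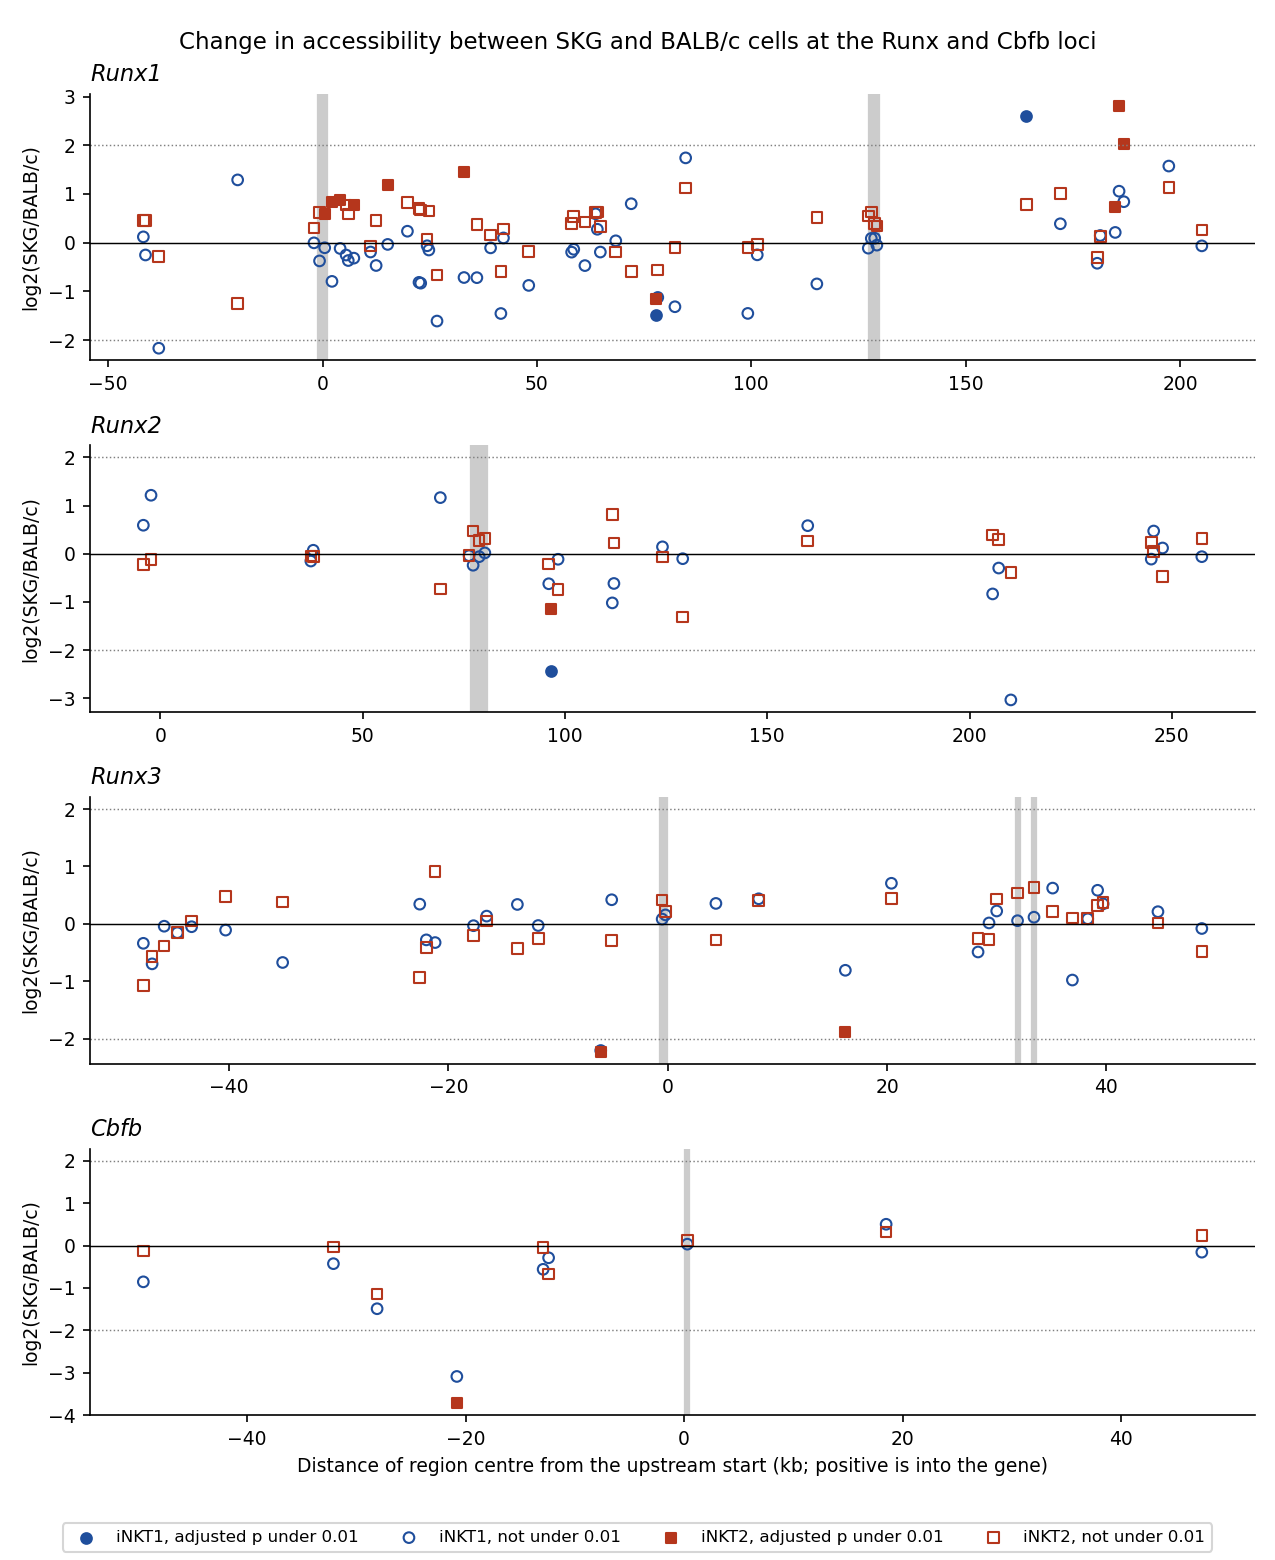
Log2 change from BALB/c to SKG cells (vertical axis) of each region at the 4 loci by its distance from the upstream start (kb, horizontal axis), in iNKT1 (blue circles) and iNKT2 cells (red squares). Filled symbols passed an adjusted p under 0.01, dotted lines mark 4-fold, grey bands mark promoter regions, and near Runx1 P1 the red symbols lie above the blue ones.

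Genes with known Runx-bound elements were taken from a list of 15, of which 409 regions were tested. In BALB/c mice 45 (11%) were called higher and 72 (17.6%) lower in iNKT2 cells, against 15.5% and 6.36% of all regions. In SKG mice the counts were 44 (10.8%) and 68 (16.6%), against 10.2% and 6.96%. At Tbx21, which encodes T-bet, 0 of 36 regions were called higher and 21 lower, at Il2rb 0 and 21 of 35, at the perforin gene Prf1 0 and 11 of 14, and at the granzyme gene Gzmb 0 and 8 of 14. At Zbtb16, which encodes PLZF, 22 of 114 regions were called higher and 0 lower. Il2rb was part of the gate. Tbx21, Ifng and Il2rb are also among the iNKT1 marker genes used above, and Zbtb16 among the iNKT2 genes. The list was chosen with earlier results of these data known. Its shares are therefore a description and do not test a property of Runx-bound genes. Between genotypes 1 (0.244%) was called higher and 2 (0.489%) lower in iNKT1 cells, against 0.281% and 0.732% of all regions, and 2 (0.489%) and 4 (0.978%) in iNKT2 cells, against 0.252% and 4.73%. For 9 genes of Runx corepressors and partners, with 229 regions, 14 (6.11%) were called higher and 13 (5.68%) lower in BALB/c mice, against the same 15.5% and 6.36%. Of the Groucho-family corepressor genes, Tle1 had 3 higher and 0 lower of 3 regions, Tle2 0 and 7 of 28, Tle3 1 and 0 of 12 and Tle4 2 and 2 of 37. Of the ETO-family genes, Runx1t1 had 2 higher and 0 lower of 2, Cbfa2t2 3 and 0 of 8 and Cbfa2t3 1 and 0 of 12. The promoters most like the Runx3 P1 region over the 10 libraries, by the root mean square difference of centred log2 CPM among 22115 promoter regions, were Trappc10 (0.054), Sike1 (0.069) and Cyld (0.07) for Runx3 -0.2 kb, and Hip1r (0.114), Adssl1 (0.143) and Rassf1 (0.147) for Runx3 -0.5 kb.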

How the data were processed

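ATAC-seq libraries of sorted iNKT1 and iNKT2 cells were used, with groups taken from the library names. As the methods state, the authors used bowtie 1.0 for alignment to mm10, dropped duplicates and mitochondrial reads, called MACS2 summits per replicate, merged the widened summits and counted transposase insertions. The deposited table is named as normalized counts. Its library totals were whole numbers from 14988590 to 36342635, and its values were read as raw counts of insertions. All tests rest on that reading. It listed 94823 regions of 300 to 7709 bp, most of them narrower than the width given in the methods, which can split one element over several rows. The paper gives a different number of accessible regions, and whether its calls came from this table is not stated. Library totals cover the listed regions only.

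The fit used edgeR 4.0.16 under R 4.3.3, with TMM factors, 4 group means over 10 libraries and quasi-likelihood F tests of 5 contrasts. SE is the log2 change divided by the root of F. Genes and features came from GENCODE M21, and coding starts within 2 kb of each other formed 1 promoter, with regions within 1 kb assigned to it. Named were promoter regions, up to 3 called regions per gene, direction and comparison, and those passing the interaction. Of the regions at Runx1 P2 and Runx2 P2 only the one over the start is named. Some listed genes are not reported here. Members and lists were chosen with earlier results of these data known. DESeq2 1.42.0, limma 3.58.1, other scalings, filters and left-out libraries were alternatives.

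Libraries with one replicate number deviated together between the genotypes of iNKT2 cells (r = 0.492, 0.165 and 0.202). In iNKT1 cells they did not (r = -0.006). Only replicate 1 of iNKT2 correlated best with its own number. BALB/c replicate 2 with SKG replicate 3 gave 0.180, and BALB/c replicate 3 with SKG replicate 2 gave 0.278. Deviations from a group mean sum to 0, so these values are not independent and do not settle a pairing. The numbers were used as pairs in the replicate block alternative and not in the main fit.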

Additional observations from a re-analysis of the deposited data

Results flagged for a closer look

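The genotype change differed between the subsets at 2 Runx1 regions, by the interaction test of edgeR with an adjusted p under 0.01. At Runx1 +7.3 kb the log2 change from BALB/c to SKG was larger by 1.10 in iNKT2 than in iNKT1 cells, with all 3 SKG iNKT2 libraries above all 3 BALB/c iNKT2 libraries and both SKG iNKT1 libraries below both BALB/c iNKT1 libraries. At Runx1 +2.2 kb the difference was 1.63, with the same order of the libraries. The share of all regions with this order was not counted. Adjusted p ranged from 2.5e-04 to 0.064 over the alternatives at the first region and from 3.5e-04 to 0.063 at the second, and leaving out any of the 4 iNKT1 libraries, BALB/c iNKT2 replicate 2 or 3 or SKG iNKT2 replicate 3 took both over 0.01, as did library totals (0.011 and 0.033) and quantile normalization (0.018 and 0.013). Without sparse regions the second was at 0.016.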

How the results depend on the processing

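With 2 or 3 libraries a group, counts of calls near 4-fold moved with the setting, and the cause was not tested unless fewer libraries or regions were used. Counts over the 4 loci are given as higher and lower. For BALB/c iNKT2 against iNKT1 cells, 11 and 18 became 5 higher with quantile normalization, 10 lower with library totals, 2 and 11 without regions under the lower quartile of mean count, and 18 and 38 at an adjusted p under 0.05 and 2-fold. Over all regions 14725 and 6029 became 9042 higher, 4750 lower, and 7880 and 3579 under the first 3 of these settings. For SKG, 10 and 19 became 5 higher with quantile normalization, 4 higher without the sparse regions, and 24 and 32 at the looser limit. Over all regions 9654 higher became 4244 with quantile normalization and 6745 without the sparse regions. For SKG against BALB/c iNKT1, 1 and 1 became 0 and 0 with quantile normalization, 0 lower with voom and TMM factors, 2 lower with DESeq2, 2 lower with the replicate block, 3 lower with the compared groups alone, and 6 lower at the looser limit. Over all regions 266 and 694 became 138 and 129 with quantile normalization. The lower count was 276 with voom and TMM factors, 770 with DESeq2, 856 with the block and 1088 with the compared groups alone. For iNKT2, 2 and 2 became 1 higher with library totals, 4 and 1 with quantile normalization, 0 and 1 without the sparse regions, and 5 and 6 at the looser limit. Over all regions 239 and 4488 became 170 higher with library totals, 1173 and 3469 with quantile normalization, and 98 and 2023 without the sparse regions. The interaction gave 5 higher at the looser limit. That limit was not counted over all regions.

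At Runx3 13 lower regions in BALB/c cells became 7 with library totals, 8 without the sparse regions and 22 at the looser limit, and 12 in SKG cells became 22 at the looser limit. With the GC trend removed Runx3 had 10 lower in BALB/c and 12 in SKG cells, with median log2 changes of -1.32 and -1.515. Over all regions 6291 and 6704 were then lower, with medians of 0.12 and 0.17. At Runx1 7 higher in BALB/c cells became 2 with quantile normalization, 2 without the sparse regions and 11 at the looser limit, and 7 in SKG cells became 3, 3 and 17. The 9 Runx1 regions higher in SKG iNKT2 by adjusted p alone became 5 without the sparse regions and 16 at an adjusted p under 0.05. Over all regions 3812 became 2065 without the sparse regions.

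Leaving out 1 library gave 0 to 1 higher and 0 to 2 lower for iNKT1 genotypes, 0 without any iNKT1 library, 1 to 2 higher and 1 to 3 lower for iNKT2 genotypes, with 1 lower without SKG iNKT2 replicate 2, 0 to 1 for the interaction, with 1 without SKG iNKT2 replicate 1, 4 to 8 higher at Runx1 in BALB/c cells, lowest without either BALB/c iNKT1 library, 4 to 8 in SKG cells, lowest without SKG iNKT1 replicate 1, and 5 to 10 for the Runx1 genotype count, lowest without BALB/c iNKT2 replicate 2. A group left with 1 library is assumed to vary like the others. All-region counts are not given beside these, so the moves cannot be called particular to the 4 loci. The Cbfb promoter change in BALB/c cells turned to 0.002 when the GC trend was removed. With quantile normalization the calls of Runx1 +68.4 kb (1.79) and Runx2 +129.1 kb (1.90) in BALB/c and of Runx1 +61.2 kb (1.92) and Runx2 +210.2 kb (adjusted p = 0.012) in SKG cells were lost. Of the single-region values under the other settings 738 kept their direction and side of the threshold, 28 lost it, 7 gained it and 1 reversed. With the GC trend removed 94 kept it, 4 lost it, 1 gained it and 1 reversed.

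The paired analysis with the replicate block moved the interaction count by adjusted p alone from 2 to 4 and, beside the iNKT1 count given above, changed no 4-fold count by over 1.5 times. Over all regions the interaction counts moved from 423 higher and 454 lower to 859 and 861. Among the deposited regions, 31 of 122 member regions fell under the lower quartile of mean count, 36.2 insertions, and depth limits what can be said of them.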
